A study of Mus musculus with 24 samples.

Results

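The genes described here are imprinted genes that sit inside another gene, together with the genes that host them. The 10 genes are Mcts2 with its host H13, Nap1l5 with Herc3, Zrsr1 with Commd1, Nnat with Blcap, Inpp5f, which holds the start of a short imprinted transcript in its own intron, and Impact, which has no host. They were chosen as a family by their known position and imprinting and by no threshold on measured values, although earlier results of these data were known. Their regions ran from 5 kb upstream of the transcription start to the gene end on mm10 (RefSeq), and held 265 of the 1005908 tiles of 100 bp that were covered in any tissue. Of the 265, 231 were covered in liver, 251 in brain, 246 in heart and 217 in all 3.

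DNA methylation was measured by enhanced reduced representation bisulphite sequencing (RRBS) of liver (12 libraries), brain (6) and heart (6) of male and female C57Bl/6J mice, an inbred strain, at 24 weeks of age. The pieces came from the front of the brain, the tip of the heart and the left lobe of the liver. No treatment or genetic change separated the groups, and the tissue was the group throughout. The columns of levels are numbered in a way that names no animal, so the gender of a library is unknown and was not compared, and brain and heart came from mice that also gave a liver library. Tissue could only be told from the name of each deposited table, and tissue and the separate processing of its table cannot be told apart.

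Genomic imprinting marks the maternal and the paternal copy of a gene differently, so that only 1 of the copies is active. At maternally imprinted promoters, the CpGs of the copy inherited from the mother are methylated in the egg and stay methylated in body tissues, and the paternal copy is free of methylation, which places the average of both copies in the middle of the scale. Intronic retrogenes are copies of processed messenger RNAs that were inserted into an intron of a host gene, several of them from a source gene on the X chromosome, and their CpG-rich promoters carry this mark while the host's own promoter does not. Because the mice are isogenic, the parental copies could not be told apart here, and every level is an average over both copies and over all cell types of the tissue.

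Mcts2 encodes a translation re-initiation factor of the MCTS family and came from the X-linked Mcts1, and its host H13 encodes a signal peptide peptidase of the endoplasmic reticulum membrane. Nap1l5 belongs to the nucleosome assembly protein family and lies in Herc3, which encodes a ubiquitin ligase. Zrsr1 is a copy of the X-linked splicing factor gene Zrsr2 and lies in Commd1, a regulator of copper handling and NF-kB signalling. Inpp5f encodes a phosphoinositide phosphatase. Nnat encodes neuronatin, a small membrane proteolipid best known from brain. It has introns of its own and is not a classical retrogene, but it shares the position within a host intron, in this case of Blcap. Impact encodes an inhibitor of the amino acid sensing kinase GCN2.

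Tiles from the promoters are shown to make visible what the levels below refer to. For 4 of the 5 retrogene promoters this is the covered tile with most CpGs. For Zrsr1 that tile, chr11:22972801-22972900, lies in a non-coding part of exon 1, and the covered tile just upstream of the start is shown in its place. The sequences are from GRCm38.p6 (mm10), plus strand, 5′ to 3′, with each CpG in capitals. The tiles are chr2:152686801-152686900 (Mcts2, upstream of its start, in intron 4 of H13), chr6:58906801-58906900 (Nap1l5, coding exon 1, in intron 23 of Herc3), chr11:22971901-22972000 (Zrsr1, in intron 1 of Commd1), chr7:128688001-128688100 (upstream of the start of the short transcript, in intron 15 of Inpp5f) and chr2:157560501-157560600 (Nnat, touching coding exon 2, in intron 1 of Blcap).
Mcts2: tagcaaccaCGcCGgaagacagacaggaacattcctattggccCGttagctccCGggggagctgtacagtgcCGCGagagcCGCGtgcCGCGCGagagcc
Nap1l5: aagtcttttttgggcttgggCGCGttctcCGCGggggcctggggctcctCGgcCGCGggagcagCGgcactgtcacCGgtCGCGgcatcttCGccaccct
Zrsr1: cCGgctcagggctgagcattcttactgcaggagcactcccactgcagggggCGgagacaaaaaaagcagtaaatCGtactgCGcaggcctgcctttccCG
Inpp5f short transcript: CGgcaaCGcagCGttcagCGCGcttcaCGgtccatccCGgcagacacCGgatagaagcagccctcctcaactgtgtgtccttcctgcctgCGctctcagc
Nnat: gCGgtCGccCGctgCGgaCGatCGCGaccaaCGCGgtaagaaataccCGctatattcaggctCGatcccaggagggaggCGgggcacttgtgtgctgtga
Next to them stand the tiles with most CpGs outside untranslated exons from 2 host promoters, chr7:128611701-128611800 in intron 1 of Inpp5f and chr2:157566101-157566200 in intron 1 of Blcap, to show that host promoters are rich in CpGs too. Within 1000 bp of the start, the genome holds 68 to 100 CpGs at the 5 hosts and 72 to 96 at the 5 retrogenes.
Inpp5f host promoter: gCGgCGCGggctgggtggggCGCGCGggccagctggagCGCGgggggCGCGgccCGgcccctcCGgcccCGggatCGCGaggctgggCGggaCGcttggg
Blcap host promoter: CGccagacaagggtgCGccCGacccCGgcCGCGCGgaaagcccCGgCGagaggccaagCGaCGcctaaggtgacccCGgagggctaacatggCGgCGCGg

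The 2 kinds of promoter differed in level and not in the presence of CpGs. In the Inpp5f host tile, with 17 CpGs, the level ran from 0 to 1.5% over the liver libraries with a median of 0.65%, from 0.4 to 3.1% in brain with a median of 0.75% and from 0 to 0.6% in heart with a median of 0.3%. In the short transcript's tile, 9 CpGs in the same gene, it ran from 68.8 to 87.5% in liver with a median of 80.15%, from 29.3 to 44.6% in brain with a median of 39.65% and from 32.5 to 48.8% in heart with a median of 37.35%. Each library was therefore higher in the short transcript's tile than any library was in the host's tile.

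The printed tiles of Mcts2, Nap1l5 and Zrsr1 were at intermediate level in all tissues, and that of Nnat, described further on, had medians just under 30% in brain and heart. The Mcts2 tile, with 11 CpGs, ran from 37.4 to 61% in liver (median 47.2%), from 29 to 43.3% in brain (median 37.2%) and from 37.4 to 62.6% in heart (median 48.9%). The Nap1l5 tile, with 12 CpGs, ran from 42.6 to 64.5% in liver (median 54.3%), from 29.8 to 45.1% in brain (median 34.35%) and from 31.5 to 42.6% in heart (median 39.7%). The Zrsr1 tile, with 5 CpGs, ran from 34.3 to 53.6% in liver (median 42.45%), from 32.8 to 40.4% in brain (median 37.65%) and from 39 to 57.8% in heart (median 42.6%). The libraries of liver overlapped with those of brain in each of the 3 tiles. The Blcap host tile, with 15 CpGs, did not exceed 3.7% in any library.

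The hexamer TGCCGC, the core of the motif bound by the zinc finger protein ZFP57 at methylated imprinted regions, was counted on both strands within 1000 bp of each start. It was present in 42.5% of the 24963 windows of the same size around autosomal genes. The hexamer holds a CpG and these windows were not matched for their number of CpGs, so the shares below do not measure enrichment. Nnat and the short Inpp5f transcript held 6 matches each, a number that 0.449% of all windows reached, Nap1l5 held 5 (1.17%) and Mcts2 held 3 (7.11%). Zrsr1 held 0. The host promoters held 2 (Herc3), 1 (H13, Commd1 and Blcap) and 0 (Inpp5f). Impact held 0 at its 5′-most curated start and 2 at its second. A match is a stretch of letters and says nothing about binding in these tissues, and no binding was measured.

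Host promoters lay near 0 in all 3 tissues, and the means of the retrogene promoters lay between 30 and 70% in all cases but 1, the short Inpp5f transcript in liver, at 70.7%, where 4 of 12 libraries and 2 of 4 tiles were in this range. A promoter was taken as all covered tiles within 1000 bp of the start, and its level in a library as the mean over these tiles. The Mcts2 promoter, with 8 tiles, ran from 40.2 to 52.95% over the liver libraries (median 47.8%), from 33.1 to 45.8% in brain (median 41.3%) and from 36.4 to 55% in heart (median 42.6%). The H13 promoter stayed between 1.07 and 4.74% in liver, 0.488 and 2.58% in brain and 1.38 and 1.93% in heart. All of its libraries lay far below every Mcts2 value.

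The Zrsr1 promoter, with 11 tiles, also overlapped between tissues. It ran from 38.01 to 48.4% in liver (median 43.1%), from 38.1 to 44.1% in brain (median 39.0%) and from 42.8 to 46.4% in heart (median 44.5%). The Commd1 promoter was the highest of the host promoters in each tissue, with a mean of 4.48% ± 0.912 (SD, n = 12) in liver, 4.79% ± 0.913 (n = 6) in brain and 4.29% ± 0.259 (n = 6) in heart.

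Nap1l5, the short Inpp5f transcript and Nnat stood higher in liver than in the other tissues. The Nap1l5 promoter (3 tiles) ran from 54.2 to 70.8% in liver (median 61.6%), from 31.3 to 41.5% in brain (median 37.5%) and from 41.2 to 47.6% in heart (median 45.4%). The promoter of the short Inpp5f transcript (4 tiles) ran from 65.05 to 75.1% in liver (median 71.3%), from 33.3 to 42.3% in brain (median 39.1%) and from 28.9 to 42.3% in heart (median 34.1%). In both promoters the lowest liver library was above the highest library of brain and of heart.

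The Nnat promoter (8 tiles in liver, 9 in brain and heart) ran from 58.1 to 71.96% in liver (median 63.8%), from 34.3 to 41.5% in brain (median 37.0%) and from 43.3 to 52.6% in heart (median 49.6%). Its 3 tissues did not overlap, with liver on top, heart in the middle and brain at the bottom. The Herc3, Inpp5f and Blcap promoters had means of 0.849%, 1.41% and 0.927% in liver, of 0.738%, 3.55% and 0.993% in brain and of 0.792%, 4.04% and 0.997% in heart.

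**Figure D1:**
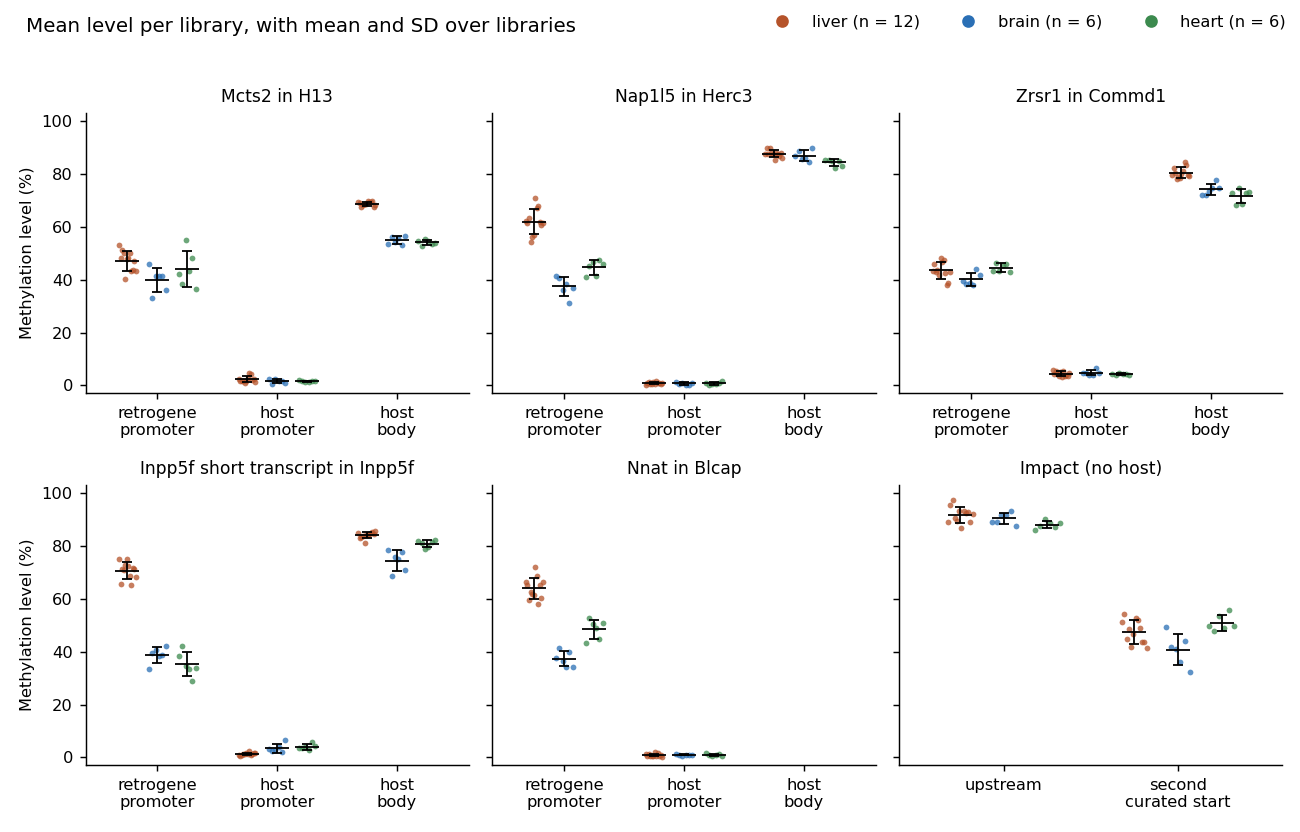
Mean methylation level in percent of each library (points) in the retrogene promoter, the host promoter and the host body, and for Impact in the upstream tiles and around its second curated start; black bars give the mean and SD over 12 liver, 6 brain and 6 heart libraries. Retrogene promoters sit between host promoters near 0 and host bodies, and liver sits above brain and heart for Nap1l5, the short Inpp5f transcript and Nnat. Blcap has no tile in its body outside the Nnat region.

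Within each library the retrogene promoter was compared with the promoter of its own host by an exact sign-flip permutation test (two-sided), with Benjamini-Hochberg adjustment over the 27 within-library tests. The retrogene promoter was higher in all 15 comparisons and in every library. In liver the difference ran from 39.0 points ± 2.98 (SD, n = 12; Zrsr1 against Commd1) to 69.2 points ± 3.27 (n = 12; within Inpp5f), each with an adjusted exact p of 0.00146. In brain it ran from 35.2 points (within Inpp5f) to 38.2 points (Mcts2 against H13), and in heart from 31.2 points (within Inpp5f) to 47.4 points (Nnat against Blcap). With 6 libraries the smallest p the test can give is 0.0313, and each brain and heart comparison reached it, with an adjusted exact p of 0.0313.

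The same promoters were lower than the bodies of their hosts. A host body was taken as the host's tiles outside its promoter and outside the retrogene and its 5 kb upstream, which left no tile for Blcap. The bodies had means from 68.7% (H13) to 87.6% (Herc3) in liver, from 54.9% (H13) to 86.9% (Herc3) in brain and from 54.1% (H13) to 84.3% (Herc3) in heart. All 12 comparisons were below 0 in every library by the same test, with adjusted exact p-values of 0.00146 in liver and 0.0313 in brain and heart. The smallest difference was that of Mcts2 in heart, where promoter minus H13 body was -10.2 points ± 6.35 (SD, n = 6), and this call did not hold in all settings: it was lost with a promoter of 500 bp, with weighting by CpGs (-2.67 points) and over the tiles present in all tables (adjusted exact p from 0.0625 to 0.375).

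Single tiles followed the promoter means. A level from 30 to 70% was found in 26 of the 34 retrogene promoter tiles in liver, against 16.8% of all liver tiles. In brain it was 31 of 35 (19.7% of all brain tiles), and in heart 30 of 35 (26.0% of all heart tiles). None of the 43 host promoter tiles in liver, 43 in brain and 42 in heart was in this range. Host bodies, at 15 of 109, 29 of 123 and 28 of 120 tiles, were near the background. The shares are a description, and adjoining tiles are not independent.

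The median SD over libraries at retrogene promoter tiles was 6.27 points in liver, 5.89 in brain and 6.28 in heart. Over all tiles at intermediate level that were present in the 3 tables it was 8.08, 9.08 and 6.72 points. Coverage was not used here, so counting error and mouse to mouse variation within these SDs cannot be told apart.

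Levels within a promoter were not flat. At Mcts2, tile means ran from 41.8 to 53.1% in liver, from 30.03 to 53.05% in brain and from 33.2 to 63.3% in heart. The heart maximum belongs to chr2:152687001-152687100, directly upstream of the start, where libraries ran from 40.9 to 86.8% with a median of 60.45%. At Zrsr1, tiles chr11:22972601-22972700 and chr11:22972701-22972800, 8 CpGs each, were lower than their neighbours in all 3 tissues, with means of 24.6 and 25.4% in liver, 21.5 and 23.3% in brain and 24.3 and 27.45% in heart. The next covered tile on either side lay between 40.3 and 53.6% in the 3 tissues. Both low tiles are in the non-coding part of the Zrsr1 exon and, like the covered tile downstream of them, overlap exon 1 of a shorter Commd1 transcript on the other strand. The tile of Zrsr1 with most CpGs, chr11:22972801-22972900, had medians of 46.25% in liver, 38.1% in brain and 45.1% in heart. The most upstream Zrsr1 tile, chr11:22971601-22971700, which is mostly repeat-masked, was the highest at 69.7, 69.4 and 76.2%.

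The 5′ side of Nnat was high in liver and fell towards the gene. Tile chr2:157559601-157559700, which has 4 CpGs and lies upstream of the start, ran from 65.3 to 92.9% in liver (median 80.2%), from 38.2 to 55.8% in brain (median 42.35%) and from 68.3 to 82.8% in heart (median 75.3%). In the tile printed above, inside the gene, the liver ran from 29.6 to 46.3% (median 40.85%), brain from 22.3 to 30.6% (median 29.9%) and heart from 23.0 to 42.9% (median 29.3%). Brain was thus the lowest tissue at the upstream edge, with no library in common with liver or heart, whereas the 3 tissues lay closer together inside the gene. Across the 8 tiles of the Nnat body present in all tables, the means were 58.0% in liver, 45.3% in brain and 54.1% in heart. Liver had a further body tile, at 22.9%, and with it the liver mean was 54.1%.

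**Figure D2:**
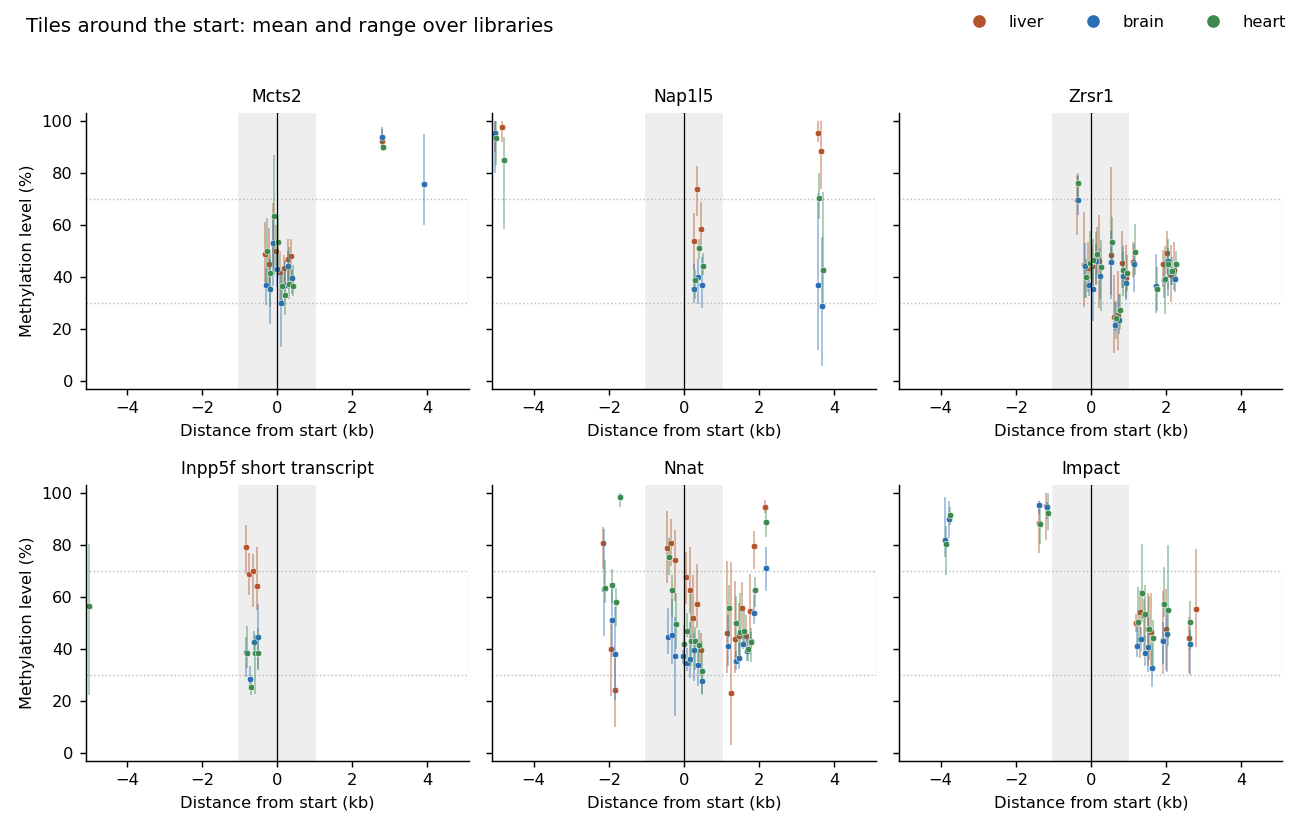
Methylation level in percent of each tile (points, tissue mean; lines, lowest to highest library) against the distance in kb from the retrogene start, or from the 5′-most curated start of Impact; grey marks 1 kb to both sides and dotted lines mark 30 and 70%. Tiles at intermediate level gather around the start at each gene with a host, and liver stands above brain and heart at Nap1l5, the short Inpp5f transcript and the 5′ side of Nnat.

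Beyond 1000 bp from the start, the stretch at intermediate level went on at Zrsr1 and ended at Nap1l5. The tiles of the Zrsr1 body, 5 in liver and 6 in brain and heart, had means of 44.6% ± 2.81 (SD, n = 12) in liver, 41.3% ± 3.51 (n = 6) in brain and 42.7% ± 3.58 (n = 6) in heart, close to those of its promoter. Upstream of Nap1l5, only 2 tiles were covered in liver and heart and 1 in brain, with means of 95.8%, 89.3% and 95.45%. The 2 tiles in the body of the short Inpp5f transcript had a mean of 77.5% in liver, 71.7% in brain and 54.2% in heart. Of these, chr7:128694901-128695000 in exon 20 was called between liver and heart, with means of 72.1 and 40.4%.

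Impact had no covered tile within 1000 bp of its 5′-most curated start (chromosome 18, position 12971923, plus strand), so the comparison of its promoter with its body could not be made. Its covered CpG-rich tiles lie from intron 1 to coding exon 2, many of them within 1000 bp of a second curated start at position 12974460. That window was chosen after the values were seen and its levels are given without a test. Its tiles (6 in liver, 5 in brain and heart) ran from 41.3 to 54.3% over the liver libraries (median 47.6%), from 32.3 to 49.4% in brain (median 41.4%) and from 47.8 to 55.9% in heart (median 49.7%), with overlap between all 3 tissues. Upstream of the 5′-most curated start, the means were 91.75% in liver (2 tiles), 90.4% in brain (4 tiles) and 88.0% in heart (4 tiles). These tiles lie inside the gene entry, which begins at position 12954690. The intermediate stretch therefore had highly methylated tiles upstream of it.

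Between tissues, the promoter levels were compared over the tiles present in all 3 tables by an exact permutation test (two-sided) with adjustment over 30 tests, 15 of them on retrogene promoters and 15 on host promoters. At the retrogene promoters, 10 of 15 passed an adjusted p of 0.05, and 7 of the 15 pairs did not overlap. At the host promoters, 2 of 15 passed and 1 pair did not overlap, and the largest difference was -1.57 points. The hosts lay at the low end of the scale, and the test was not run on other promoters. Whether these counts are unusual for promoters at intermediate level therefore cannot be told. Since no individual can be followed from tissue to tissue, libraries were treated as independent although some share a mouse, and cell types that make up each tissue differ, so that a different mixture of cells and a different level in the same cells cannot be told apart.

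Liver exceeded brain by 24.5 points ± 2.06 (SE) at Nap1l5, by 31.9 ± 1.56 at the short Inpp5f transcript and by 26.7 ± 1.73 at Nnat, each with an adjusted exact p of 0.000462. The raw p was then 0.000108, the smallest that 12 against 6 libraries can give in the exact test. It exceeded heart at the same promoters by 17.3 ± 1.79, 35.4 ± 2.09 and 14.8 ± 2.23 points (adjusted exact p = 0.000462 each). At the short Inpp5f transcript the size depended on tiles away from the start. A promoter of 500 bp leaves out its tiles from chr7:128688001 to chr7:128688300 and keeps only the tile nearest the start. Liver then exceeded brain there by 19.5 points and heart by 25.8 points (adjusted exact p = 0.00323 and 0.000646). At Mcts2 liver was 7.32 ± 2.15 points above brain (adjusted exact p = 0.0126), and the libraries overlapped. At Zrsr1 the difference of 3.43 ± 1.36 points between liver and brain did not pass (adjusted exact p = 0.0852).

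Heart was above brain at 3 retrogene promoters. Brain minus heart was -11.9 ± 2.30 points at Nnat (adjusted exact p = 0.00812), -7.18 ± 1.87 at Nap1l5 (0.0195 by the same exact test) and -4.48 ± 1.18 at Zrsr1 (0.0236, same exact test). It did not pass at Mcts2, at -4.08 ± 3.34 points, or at the short Inpp5f transcript, at 3.54 ± 2.24 points. Brain held the retrogene promoters closest together, with the 5 means between 37.4 and 40.1%, whereas they ran from 43.5 to 70.7% in liver and from 35.2 to 48.4% in heart.

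The order of the retrogene promoters differed between tissues accordingly. In liver it was the short Inpp5f transcript, Nnat, Nap1l5, Mcts2 and Zrsr1 from high to low. The libraries of the short transcript, Nnat and Nap1l5 overlapped, as did those of Mcts2 and Zrsr1, and every library of the upper 3 promoters was above every library of the lower 2. In heart, Nnat, Nap1l5, Zrsr1 and Mcts2 overlapped, and the short transcript had the lowest mean with libraries that reached into those of Nap1l5 and Mcts2. In brain all 5 overlapped.

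Among the hosts, only the Inpp5f promoter passed between tissues. Liver minus brain was -1.08 points ± 0.556 (SE; adjusted exact p = 0.0275) and liver minus heart was -1.57 ± 0.292 points (adjusted exact p = 0.000462). The first of these rests on 1 brain library, which stood at 6.75% over the promoter of its own table while the other 5 lay between 2.22 and 3.82%, and without it the difference was -0.554 points (adjusted exact p = 0.0741). Both calls were lost with a promoter of 500 bp, at -0.973 and -0.789 points (adjusted exact p = 0.133 and 0.0669). The change of the retrogene minus host difference from tissue to tissue, tested in the same way over 15 comparisons, passed in 11.

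In the fit over all 758685 tiles present in the 3 tables, a call required an adjusted p by limma of at most 0.01 together with 25 points or more between the tissue means. Between liver and brain, 9.80% of all tiles were called, and 31 of the 217 tiles of these genes (14.3%). Between liver and heart it was 10.8% of all tiles and 33 of 217 (15.2%), and between brain and heart 9.47% of all tiles and 12 of 217 (5.53%). The median difference over all tiles was 0.283 points between liver and brain, 3.5 between liver and heart and 3 between brain and heart, and over the 217 tiles it was 3.05, 3.08 and -0.333 points.

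The calls fell on retrogene promoters and on hosts in different ways. Of the 34 retrogene promoter tiles, 9 were called between liver and brain, 4 between liver and heart and 1 between brain and heart, and liver was the higher tissue in all 13 that involved it. Tiles at intermediate level were called more often than all tiles: of the 175321 shared tiles with a mean over the tissues from 30 to 70%, 28.5%, 34.9% and 29.2% were called in the 3 pairs, and the counts of 9, 4 and 1 of 34 did not exceed these shares. The median difference over those 175321 tiles was -1.96, 12.7 and 13.97 points. Called or not, liver was above brain in 34 of the 34 tiles, with a median difference of 10.8 points, and above heart in 24 of 34, with a median of 6.56 points. Brain was above heart in 8 of 34, with a median of -5.2 points. The median over host promoter tiles was between 0 and 0.0625 points in the 3 pairs. Of the 40 host promoter tiles, 0 were called by limma in any pair, since no difference exceeded 9.28 points, while 7 (liver-brain), 6 (liver-heart) and 6 (brain-heart) were at an unadjusted p under 0.05. At a limma adjusted p under 0.05 there were still 5, 6 and 3. Over all tiles, whatever the size of the difference, 30.6%, 36.8% and 32.2% had a limma adjusted p of at most 0.01. Of the 101 host body tiles, 18 were called between liver and brain (15 higher in liver), 23 between liver and heart (19 higher in liver) and 11 between brain and heart (6 higher in brain). Of the 13 Impact tiles, 0 were called by limma in any pair, with differences of at most 17.6 points in size, and 6, 2 and 8 were at an unadjusted p under 0.05. At a limma adjusted p under 0.05 there were 5, 2 and 5.

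At the short Inpp5f transcript, all 4 promoter tiles were called between liver and heart and 3 between liver and brain. Tile chr7:128688101-128688200, in intron 15, ran from 60.7 to 76.7% in liver (median 70.05%), from 25.6 to 33.3% in brain (median 26.9%) and from 22.4 to 27.4% in heart (median 25.7%). Liver was above brain by 40.4 points ± 2.41 (SE; limma adjusted p = 2.04e-13) and above heart by 43.8 ± 2.41 points (6.32e-14). At Nap1l5, tile chr6:58906701-58906800 in coding exon 1 ran from 63.4 to 82.8% in liver, from 29.4 to 47.0% in brain and from 46.7 to 54.4% in heart, and liver was above brain by 33.5 points ± 2.93 (limma adjusted p = 3.69e-10). At Nnat, 5 of 8 shared promoter tiles were called between liver and brain, led by chr2:157559801-157559900 with 36.9 points ± 4.88 (limma adjusted p = 6.12e-07). No promoter tile of Mcts2 or Zrsr1 was called in any pair.

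**Figure D3:**
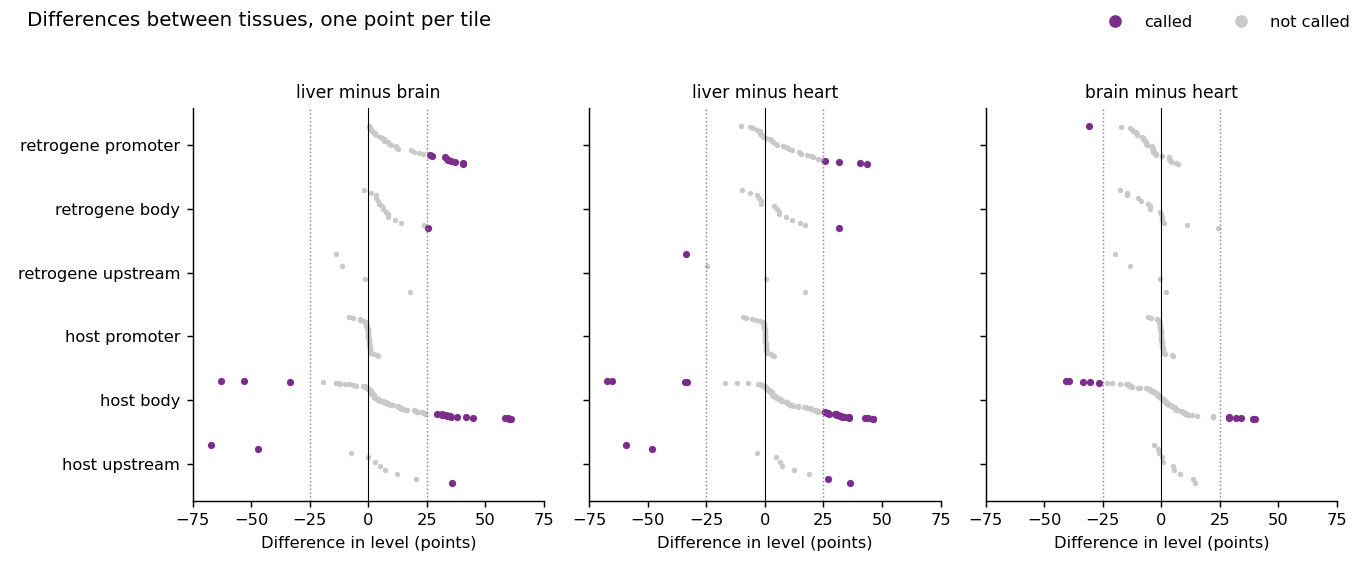
Difference in methylation level in points between 2 tissues, 1 point per tile present in all 3 tables, for the retrogenes with a host and for the hosts, grouped by region; purple tiles were called (limma adjusted p of at most 0.01 and 25 points or more, dotted lines) and grey tiles were not. Host promoter tiles stay close to 0, retrogene promoter tiles are called higher in liver, and host tiles are called in both directions.

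The largest differences of the hosts are given next, in tiles that by definition lie outside the retrogenes and their promoters. Those of Herc3 lay close to Nap1l5. Upstream of H13, tile chr2:152666801-152666900, which has 1 CpG and is partly repeat-masked, ran from 13 to 29.5% in liver (median 19.35%), from 79.3 to 100% in brain (median 87.9%) and from 67.4 to 93.9% in heart (median 79.2%). Liver minus brain was -67.0 points ± 3.87 (SE; limma adjusted p = 1.1e-13) and liver minus heart was -59.2 ± 3.87 points (1.67e-12). The adjoining tile chr2:152666701-152666800 went the same way, with means of 15.01% in liver, 62.0% in brain and 63.1% in heart.

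The first part of the last exon of H13 was high in liver and lower in brain and heart. In tile chr2:152706301-152706400, in the non-coding part of exon 13 with 9 CpGs, the level ran from 78.5 to 90.9% in liver (median 85.5%), from 18 to 39% in brain (median 24.65%) and from 27.8 to 49.2% in heart (median 41.05%). Liver exceeded brain there by 59.99 points ± 3.36 (limma adjusted p = 6.12e-14) and heart by 46.2 ± 3.36 points. The adjoining tile chr2:152706201-152706300 also set brain apart from heart, with means of 89.1% in liver, 28.2% in brain and 67.75% in heart. Further along the same exon, in chr2:152707001-152707100, which has 1 CpG, heart was the lowest tissue, with a mean of 27.8% against 54.2% in liver and 66.85% in brain. Brain was also above liver in chr2:152706801-152706900, at 76.7 against 68.2%, which is less than the 25 points of a call. This tile was examined after its values were seen. From chr2:152707301-152707400 on, 9 tiles examined after their values were seen were lower in all tissues, with means of 16.4 to 45.2% in liver, 10.75 to 37.1% in brain and 5.67 to 9.32% in heart.

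Inside intron 10 of H13, downstream of Mcts2, tiles chr2:152696901-152697000 and chr2:152697001-152697100 were almost free of methylation in all tissues, with means of 3.74 and 2.35% in liver, 1.38 and 2.48% in brain and 0.933 and 1.48% in heart. They were singled out after their values were seen. No library of them exceeded 9.1%.

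In Herc3, tile chr6:58900801-58900900 in intron 23 ran from 20.4 to 34.7% in liver (median 27.4%), from 85.1 to 94.4% in brain (median 90.25%) and from 92.0 to 96.9% in heart (median 94.3%). Liver minus brain was -62.75 points ± 2.52 (SE; limma adjusted p = 1.25e-16) and liver minus heart was -67.4 ± 2.52 points (7.98e-17). Between this tile and Nap1l5, which is read in the opposite direction, the order turned around. Tile chr6:58903401-58903500, in a non-coding exon 23 of a Herc3 transcript, ran from 73.7 to 100% in liver (median 88.25%), from 5.6 to 55.2% in brain (median 27.8%) and from 30 to 72.7% in heart (median 38.4%), and liver exceeded brain by 59.7 points ± 6.90 (limma adjusted p = 6.17e-08). Heart was the lowest tissue at 1 CpG of coding exon 25, in chr6:58916701-58916800, with a mean of 38.8% against 68.7% in liver and 78.7% in brain. It was also the lowest in intron 3, at chr6:58851401-58851500, with 53.4% against 87.65 and 85.2%.

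In Commd1, heart stood apart in 2 adjoining tiles of intron 2. Tile chr11:22907101-22907200 ran from 91.9 to 97.5% in liver (median 96.0%), from 81.1 to 92.9% in brain (median 87.6%) and from 36.1 to 62.9% in heart (median 52.8%), and liver exceeded heart by 42.9 points ± 2.65 (limma adjusted p = 5.64e-13). The adjoining chr11:22907001-22907100 had means of 97.1, 93.2 and 64.4%. The only Commd1 tile called between liver and brain, chr11:22936501-22936600 in the same intron, has 1 CpG. It had means of 77.7% in liver, 44.6% in brain and 67.85% in heart, with brain the lowest tissue.

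In Inpp5f, tile chr7:128667501-128667600 in coding exon 7, with 1 CpG, set brain apart, from 31.6 to 57.3% (median 41.65%) against 72.1 to 100% in liver (median 86.9%) and 76.7 to 89.3% in heart (median 85.35%). In intron 1, close to the host promoter, chr7:128614901-128615000, also with 1 CpG, was lower in liver, with a mean of 22.3% against 55.8% in brain and 56.2% in heart (limma adjusted p = 5.11e-09 and 3.97e-09). Upstream of Blcap, chr2:157568901-157569000 had means of 88.7% in liver, 53.1% in brain and 52.45% in heart. In exon 2 of Blcap upstream of Nnat, chr2:157558201-157558300 was lowest in liver, the tissue in which the Nnat promoter was highest, with 24.3% in liver, 38.1% in brain and 58.1% in heart, and only liver against heart was called.

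**Figure D4:**
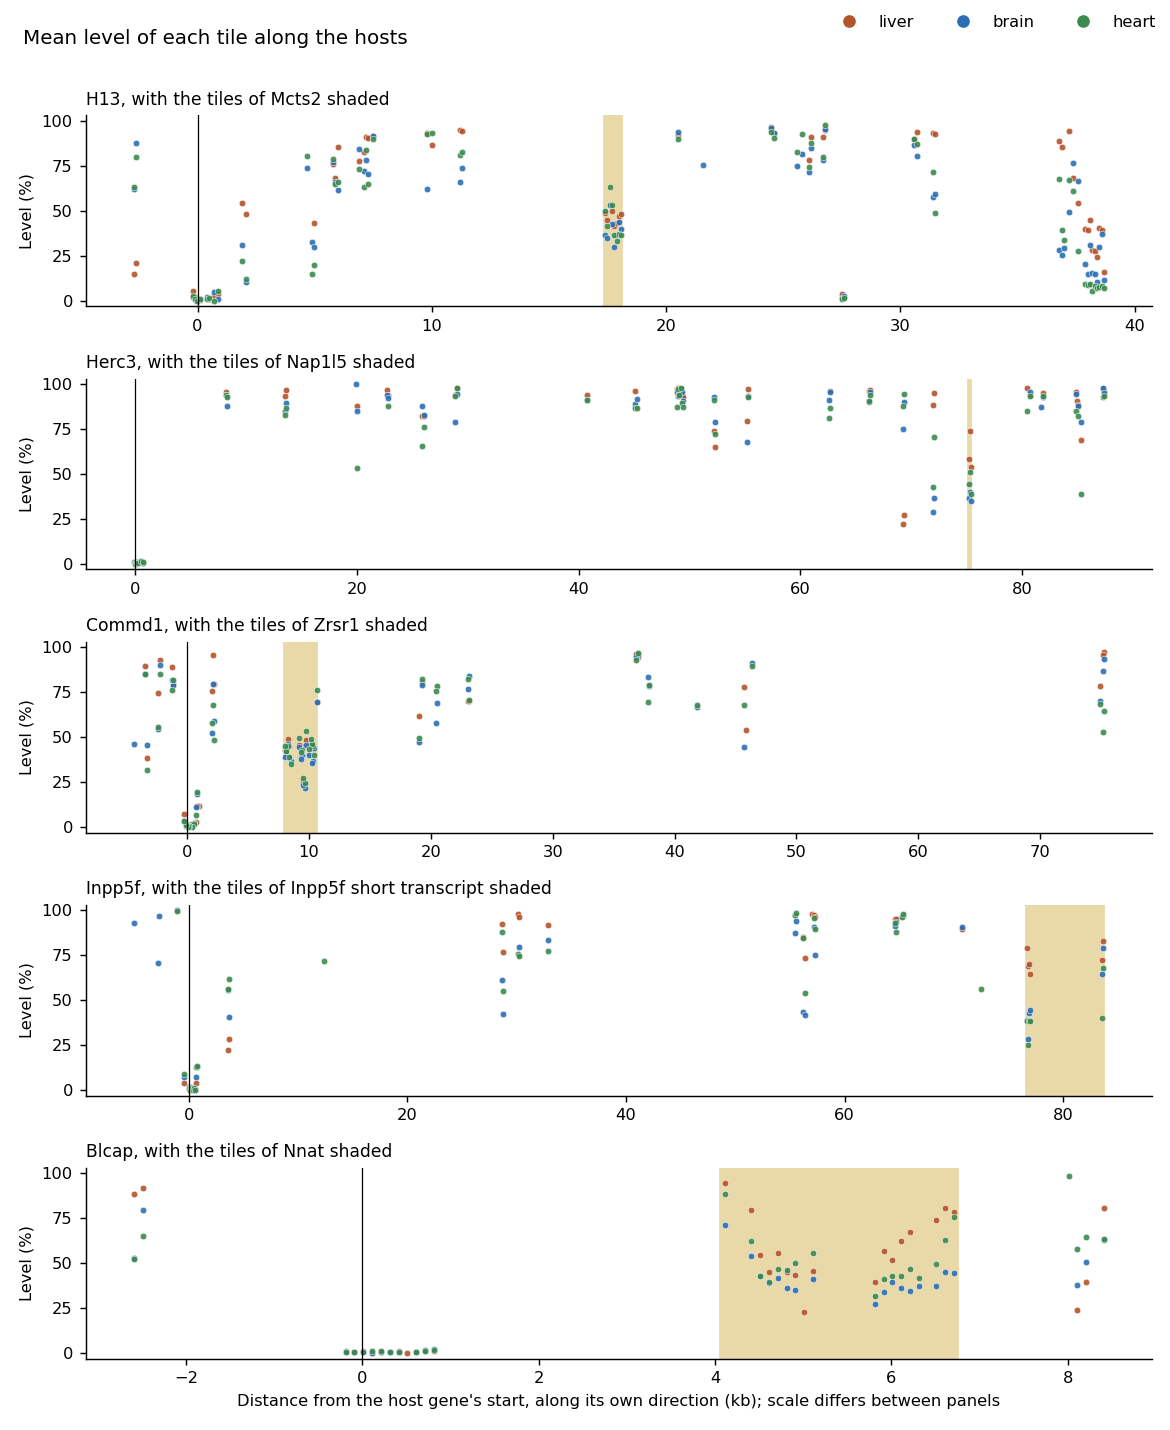
Mean methylation level in percent of every covered tile along each host, against the distance in kb from the host's start in the direction of the gene, with the tiles of the retrogene shaded; the scale of the x axis differs between hosts. Each host starts near 0, most body tiles of H13, Herc3, Commd1 and Inpp5f are high, the tiles around the retrogene starts lie between these levels, those of the short Inpp5f transcript near the top of that span in liver, and the tissues part at single tiles elsewhere, such as the last exon of H13 and the stretch of Herc3 before Nap1l5.

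Other imprinted genes with a maternally methylated promoter were mostly at a like level around their 5′-most start. Of 8 such genes, 7 had covered tiles within 1000 bp of the 5′-most start (Peg3, Mest, Peg10, Plagl1, Grb10, Airn and Kcnq1ot1, with none for Snrpn). Their mean was from 30 to 70% in 6 of the 7 in liver and brain and 5 in heart. The exceptions were Grb10, at 4.22% in liver, 3.42% in brain and 4.75% in heart around its 5′-most start, and Mest in heart, at 76.7%. Around its 5′-most start Mest was lowest in liver (52.96%), whereas Nap1l5, the short Inpp5f transcript and Nnat were highest there. Mest has 3 curated starts and Grb10 has 2, and only the 5′-most was read. Their levels may therefore not be those of the maternally methylated promoter. The tissue labels could be checked at 3 of 9 marker promoters: Gfap, Mag and Snap25, genes of astrocytes, myelin and synapses, had their lowest mean in brain, at 68.1, 64.3 and 1.45%, against 76.2, 88.8 and 3.99% in liver and 72.1, 75.5 and 2.06% in heart. Brain and heart libraries overlapped at all 3, so these promoters do not separate the 2 tables library by library, and the liver and heart markers had no covered tile.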

How the data were processed

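Genomic DNA of frozen liver (12 libraries), brain (6) and heart (6) was used for enhanced RRBS by a commercial service (Methyl-MiniSeq, Zymo Research). The authors processed the calls with methylKit into tiles of 100 bp covered in every sample of a tissue, after a lower and an upper limit on coverage. The submitters' processing notes name Bismark, methylKit and mm10. The deposited values are fractions between 0 and 1 per tile and library, without coverage, so depth is unknown and no interval from counts or coverage minimum could be applied. They were multiplied by 100 and used as percent.

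Tiles were assigned to genes by curated RefSeq transcripts (GRCm38.p6). The build was checked by the share of tiles with a CpG (99.8% in liver, 99.9% in brain and heart, and about 55% after a shift of 100000 bp). Genes and gene lists were chosen with earlier results of these data known. Tiles were named by most CpGs in a promoter and, per gene and tissue pair, up to 3 called tiles with the largest difference. The low and the most upstream tiles of Zrsr1, the Mcts2 tile next to its start and the printed Zrsr1 and host tiles fall outside this rule and were chosen after their values were seen. Promoters were compared by exact permutation tests (numpy 2.4.6, scipy 1.17.1) and tiles by limma 3.58.1 (R 4.3.3) with an empirical Bayes trend, all 24 libraries in 1 fit, with Benjamini-Hochberg adjustment. The permutation tests and the limma fit were tested on simulated data. Library means over all tiles lay between 65.7 and 67.0% in liver, 65.4 and 68.2% in brain and 61.0 and 61.8% in heart, the correlation of libraries of a tissue, across tiles, was between 0.934 and 0.975, and no pair was identical. For 2 mice the gender label differed between liver and the other tissues, and gender entered no step. Some mice were littermates. P-values measure the spread between the sequenced samples. Alternatives were a promoter of 500 bp, at least 3 CpGs per tile, weighting by CpGs, other sets of tiles or host starts, a logit scale, no trend and other thresholds, and, chosen after seeing the data, leaving out brain library 6 and the second start of Impact.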

Additional observations from a re-analysis of the deposited data

Results flagged for a closer look

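In 11 of 15 comparisons the difference between retrogene promoter and host promoter differed between tissues (exact permutation test of the per-library differences over shared tiles, two-sided, adjusted over 15). It was larger in liver than in brain by 6.59 points at Mcts2 (adjusted exact p = 0.0059), by 24.3 at Nap1l5, 32.97 at the short Inpp5f transcript and 26.7 at Nnat (each 0.000269 by the exact test), and by 4.64 at Zrsr1 (adjusted exact p = 0.00503). It was larger in liver than in heart by 17.3 points at Nap1l5, 36.999 at the short Inpp5f transcript and 14.8 at Nnat (each 0.000269 by the exact test). Brain minus heart was -7.03 points at Nap1l5 (adjusted exact p = 0.0059), -4.98 at Zrsr1 and -11.9 at Nnat (both 0.00406 by the exact test). Between liver and brain, the Zrsr1 promoter alone did not pass, at 3.43 points (adjusted exact p = 0.0852). The 4.64 points at Zrsr1 include a Commd1 promoter difference of -1.21 points, whose sign turned in other settings. The test of the difference was not repeated in those settings.

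In brain, 1 of the 6 libraries stood far from the others at the Inpp5f promoter, at 6.75% against 2.22 to 3.82%, and at its CpG-rich tile chr7:128611701-128611800, at 3.1% against 0.4 to 0.9%. Of 46 groups of 6 libraries looked at, 2 stood out in this way, and chance alone flags about 1 in 20. Without that library the mean of the Inpp5f promoter in brain was 2.91% in place of 3.55%.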

How the results depend on the processing

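No paired analysis was possible because the columns of levels carry running numbers that name no mouse. The 75 alternative values of retrogene minus host promoter and 74 of 75 of the retrogene promoter differences between tissues kept their direction and their side of the threshold, and so did 45 of 48 against host bodies, where the 3 that lost the call were Mcts2 in heart. Some of these values could not change. Taking all host starts returned the main value in all 15 comparisons of retrogene and host promoter. Between tissues, a promoter of 500 bp returned the main differences at Mcts2, Nap1l5 and Nnat. At least 3 CpGs returned them at Nap1l5, the short Inpp5f transcript and Nnat. The liver to brain difference of Zrsr1 passed with at least 3 CpGs per tile, at 3.72 points (adjusted exact p = 0.0361). Host promoter differences between tissues were small and unstable. With a promoter of 500 bp, 3 were called higher and 0 lower, with at least 3 CpGs 3 were called higher and 3 lower, and with weighting by CpGs 1 higher and 2 lower, against 0 higher and 2 lower before. The sign turned at Commd1 for liver minus brain (0.85 points with 500 bp, 1.06 with at least 3 CpGs) and liver minus heart (1.01, 1.19, 0.155 weighted by CpGs and 0.19 over each tissue's own tiles), at Inpp5f for brain minus heart (0.183 with 500 bp, 0.0369 weighted), at Blcap for liver minus brain (0.168, 0.0787 and 0.101) and at H13 for brain minus heart (0.0167 over own tiles, 0.051 without brain library 6). The cause was not tested. At an adjusted p of 0.05 and 10 points, limma called 208779, 241138 and 244202 of all tiles (27.5%, 31.8% and 32.2%) and 76, 77 and 48 of the 217 tiles of these genes (liver-brain, liver-heart, brain-heart), since more tiles pass looser limits. A range of 40 to 60% held 19 of 34 retrogene promoter tiles in liver, against 7.51% of all liver tiles. In brain it held 13 of 35 (9.03% of all brain tiles) and in heart 18 of 35 (12.1% of all heart tiles). The comparison of Impact's promoter with its body could not be made, and a coverage minimum could not be varied. Depth is unknown, so the part of a level's spread that comes from counting cannot be given, and few tiles (3 at Nap1l5, 4 at the short Inpp5f transcript) stand for a promoter.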
